A study of Mus musculus with 6 samples.

Results

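The genes described here are the enzymes of betaine and homocysteine metabolism: Bhmt, Bhmt2, Chdh, Dmgdh, Sardh, Gnmt, Mat1a, Ahcy, Cbs and Cth. They were chosen by name for their place in the pathway, with earlier results of these data known. In the deposited table, 10 of the 19594 genes with counts carry one of these names. All 10 were abundant enough to be tested, among 11794 genes tested. Cap-enriched liver RNA was sequenced from wild-type mice and mice labelled SHP -/-, in 3 libraries each. All were male, aged 2 months and on a C57BL6 background. SHP is the nuclear receptor encoded by Nr0b2, a partner that represses other transcription factors and restrains bile acid synthesis. The labels do not say how the allele was made, which cells carry it, or whether the animals were littermates, and each library is given as a separate replicate of its genotype. They do say that 3 barcoded libraries shared a lane but not which ones, and genotype and lane cannot be told apart.

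Methionine is activated to S-adenosylmethionine, which donates its methyl group and leaves S-adenosylhomocysteine, and this is split to homocysteine. Homocysteine is then either given a new methyl group, from betaine or from folate, or joined to serine and passed on to cysteine by transsulfuration. All of these steps take place in liver. Betaine, made from choline, gives up its methyl groups there one after another through dimethylglycine and sarcosine.

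Bhmt, Bhmt2 and Dmgdh lie next to each other on chromosome 13. In the coordinates of the deposited table (mm9), Bhmt2 runs from 94425675 to 94444257 on the minus strand and Dmgdh from 94444388 to 94522786 on the plus strand, so the 2 genes start back to back with 130 bases between them. Bhmt (94386846 to 94407916, minus strand) follows in the same direction, with 17758 bases between the end of Bhmt2 and its start. Promoter windows from RefSeq on GRCm38.p6, each from 250 bases before to 50 bases after an annotated start, were found for 8 of the 10 genes (not for Mat1a and Cth). The stretches shown are those before the start of Bhmt, the gene with the largest difference, between the starts of Bhmt2 and Dmgdh, whose differences were nearly equal, and before the start of Gnmt, the most abundant transcript per length. Capitals mark AGGTCA on either strand in the Bhmt and Gnmt stretches, and GGGCGG on either strand in the shared stretch.
Bhmt, chr13:93637759-93638008, minus strand: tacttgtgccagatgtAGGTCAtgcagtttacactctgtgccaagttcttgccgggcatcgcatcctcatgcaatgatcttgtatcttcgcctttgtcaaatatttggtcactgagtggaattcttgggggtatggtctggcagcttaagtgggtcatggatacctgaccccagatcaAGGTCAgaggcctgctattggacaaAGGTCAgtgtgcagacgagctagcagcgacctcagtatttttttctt
Bhmt2 to Dmgdh, chr13:93674303-93674435, plus strand: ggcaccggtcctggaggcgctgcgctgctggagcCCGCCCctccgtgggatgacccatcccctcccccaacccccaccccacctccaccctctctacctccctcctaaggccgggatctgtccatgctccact
Gnmt, chr17:46729166-46729415, minus strand: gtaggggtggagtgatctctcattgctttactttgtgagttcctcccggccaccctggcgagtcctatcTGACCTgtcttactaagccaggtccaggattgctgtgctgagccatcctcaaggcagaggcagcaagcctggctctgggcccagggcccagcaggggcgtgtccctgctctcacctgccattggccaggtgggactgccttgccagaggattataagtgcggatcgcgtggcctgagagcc

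AGGTCA is the half-site that many nuclear receptors recognise. The Bhmt window held 3 copies, beginning 234, 72 and 47 bases before the start, while the windows of Gnmt, Sardh and Ahcy held 1 each and those of Bhmt2, Dmgdh, Chdh and Cbs held 0. Of 32851 windows of the same length, 16.3% held at least 1 copy and 0.183% at least 3. The copy 72 bases before the Bhmt start is part of TCAAGGTCA, a form of the extended half-site bound by LRH-1, which was found in 0.423% of all windows and in no other window of these genes. The looser CAAGGNCA, which overlaps both, was found in the Bhmt window and in 1 Chdh window, against 6.71% of all windows. TGATGNAA (3.97% of all windows), the inverted repeat of AGGTCA with 1 base between its arms (0.0274%) and TATAAA (13.6%) were absent from all windows of these genes, and GGGCGG (35.7%) was present in 5 genes. In the GRCm38.p6 annotation 133 bases separate the Bhmt2 and Dmgdh starts, with a GC content of 69.9%, against 48.0% in the Bhmt window and a median of 52.7% over all windows. These are matches of letters and not measured binding. The motifs were chosen after the windows were seen, so the shares over all windows describe the matches and do not test them.

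The libraries held between 4494353 and 7225842 counts in genes. Nr0b2 itself held 104, 59 and 85 counts in the wild-type libraries and 29, 36 and 77 in the knockout libraries. Its log2 difference, knockout minus wild type, was −0.81 (SE 0.25), with an adjusted p of 0.0443 by limma voom (no overlap in CPM), and 1 of 6 fits that each left out a library kept this call (adjusted p up to 0.121). Which bases the allele removes is not in the labels, so these counts may come from sequence that remains. Mitochondrially encoded transcripts took 10.2% ± 0.0617 of wild-type counts and 6.50% ± 0.753 of knockout counts (SD, n = 3 each; two-sided exact permutation p = 0.1, the smallest that 3 against 3 can give). The part of this shift in the results was not tested. With mitochondrially encoded genes left out of totals, scaling and tests, the differences of the 10 genes kept their direction and side of the threshold. Leaving them out checks only the totals and not what else the shift may mark. Of 8 hepatocyte markers, summing to between 78852 and 100781 CPM (counts scaled to a common library total) in wild type and between 84142 and 89859 in knockout, 0 rose and 1 fell. Of 8 macrophage markers 2 rose (C1qa and Marco) and 0 fell, with sums of 315 to 369 CPM in wild type and 318 to 478 in knockout. Of these 8 markers 5 had a positive log2 difference (median 0.18). Of 6 endothelial markers 1 rose (Lyve1) and 0 fell, with sums of 429 to 472 and 293 to 447 CPM. Of these 6 markers 2 had a positive log2 difference (median −0.25). Kdr (−0.42), Clec4g (−0.40) and Stab2 (−0.30) did not pass, with all knockout values below all wild-type values. Over all genes tested 17.9% had groups apart in that direction. Stellate, cholangiocyte, erythroid and lymphocyte markers had 0 of 14 tested past the threshold by limma voom, and their part in the results was not tested. None of the markers listed was at 0 in all libraries. In bulk liver, fewer cells of a type and less RNA per cell cannot be told apart.

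Transcripts of 7 of the 10 enzymes rose in knockout liver, 0 fell and 3 did not pass the threshold (limma voom, Benjamini-Hochberg adjusted p under 0.05 over all genes tested). Over all genes tested 14.5% passed in either direction, with 7.58% higher and 6.94% lower. The groups did not overlap for 8 of the 10 genes, against 35.1% of all genes. The median log2 difference was 0.62 over the 10 genes and −0.01 over all genes tested. Since the 10 genes were chosen with earlier results of these data known, these contrasts describe the list and do not test it. Together the 10 genes took 0.867%, 0.704% and 0.672% of counts in wild-type libraries 1, 2 and 3 and 1.14%, 1.17% and 1.26% in knockout libraries 1, 2 and 3.

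**Figure D1:**
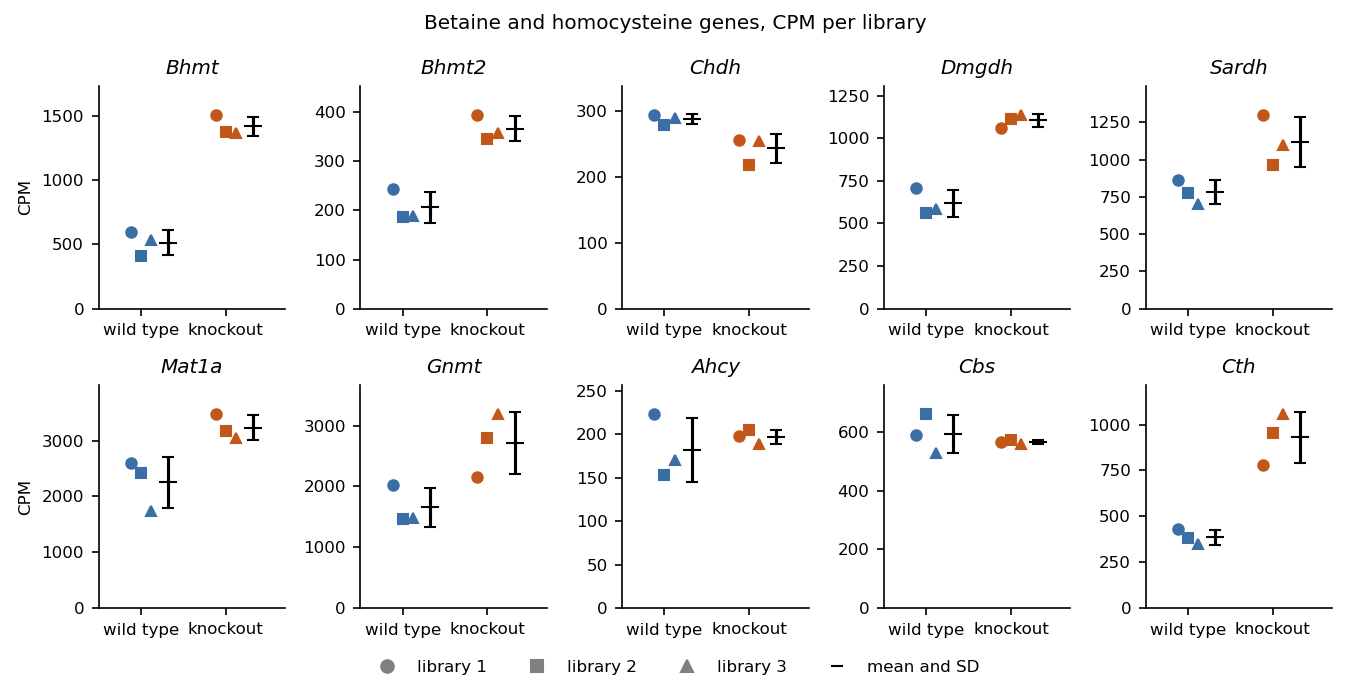
CPM of the 10 genes in each of 3 wild-type (blue) and 3 knockout (orange) libraries, on axes that start at 0, with marker shapes for library numbers and black bars for the mean and SD of each group. The groups are apart for 8 genes, with knockout lower for Chdh, and overlap for Ahcy and Cbs.

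Bhmt (ENSMUSG00000074768), betaine-homocysteine methyltransferase, moves a methyl group from betaine to homocysteine and so makes methionine and dimethylglycine. It was at 595, 408 and 535 CPM in wild-type libraries 1, 2 and 3 and at 1504, 1376 and 1365 CPM in knockout libraries 1, 2 and 3. The groups were far apart, and the lowest knockout library was well above the highest wild-type library. The mean rose from 513 ± 95.5 to 1415 ± 77.1 CPM (SD, n = 3 each), a log2 difference of 1.48 ± 0.13 (SE; 2.79-fold; limma voom, adjusted p = 2.20e-05), and Bhmt ranked 8 by p among all genes tested. The call held in 6 of 6 fits without 1 library, with log2 differences from 1.33 to 1.60.

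Bhmt2 (ENSMUSG00000042118) encodes a close relative that methylates homocysteine with S-methylmethionine. It was at 243, 186 and 189 CPM in wild type and 394, 345 and 358 CPM in knockout. Each knockout library lay above each wild-type library, and the log2 difference was 0.84 ± 0.12 (limma voom, adjusted p = 0.000738). The ratio of Bhmt to Bhmt2 counts was higher in each knockout library than in each wild-type library. Counts of Bhmt were 2.45, 2.19 and 2.83 times those of Bhmt2 in wild type and 3.82, 3.99 and 3.81 times in knockout. The log2 ratio differed by 0.64 between the groups, which did not overlap (two-sided exact permutation p = 0.1, the smallest possible; 0.12 adjusted over the 6 ratios tested). The sources used here do not give how reads that match both paralogues were counted, and the split between them is uncertain.

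Dmgdh (ENSMUSG00000042102), dimethylglycine dehydrogenase, oxidises the dimethylglycine that Bhmt releases to sarcosine in mitochondria. It was at 711, 561 and 583 CPM in wild type and 1061, 1116 and 1136 CPM in knockout. The knockout libraries lay close together and above all wild-type libraries, with a log2 difference of 0.84 ± 0.11 (limma voom, adjusted p = 0.000342). Bhmt2 and Dmgdh, which share a start region, had the most similar profiles of the 45 pairs of these genes: their centred log2 CPM differed by a root mean square of 0.0866 over the 6 libraries, against 0.876 for the least similar pair, Bhmt and Chdh. The next pairs, each on different chromosomes, were Sardh and Mat1a at 0.138 and Dmgdh and Gnmt at 0.158. A part of the shared start in the similarity was not tested. The calls of Bhmt2 and Dmgdh held in 6 of 6 fits without 1 library, with log2 differences from 0.78 to 0.96 for Bhmt2 and from 0.79 to 0.95 for Dmgdh.

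Within 500 kb of the 3 genes 7 others were tested, and 0 of them rose. Over all genes tested 7.58% were higher and 6.94% lower, and counts of 0 or 1 among 7 genes are near these shares. Of these Papd4 fell, with a log2 difference of −0.82 ± 0.26 (limma voom, adjusted p = 0.0488), and the other 6 did not pass. Jmy and Arsb, the nearest other tested genes outside the cluster on each side, had log2 differences of 0.11 ± 0.13 and 0.26 ± 0.14. AC158524.1, on the opposite strand within Bhmt, did not pass (1.16 ± 0.86 on the log2 scale, adjusted p = 0.389). Its counts were at most 1.45% of those of Bhmt in any library. The sources used here do not give whether counting used strand, and reads of this gene and of Bhmt cannot be told apart.

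**Figure D2:**
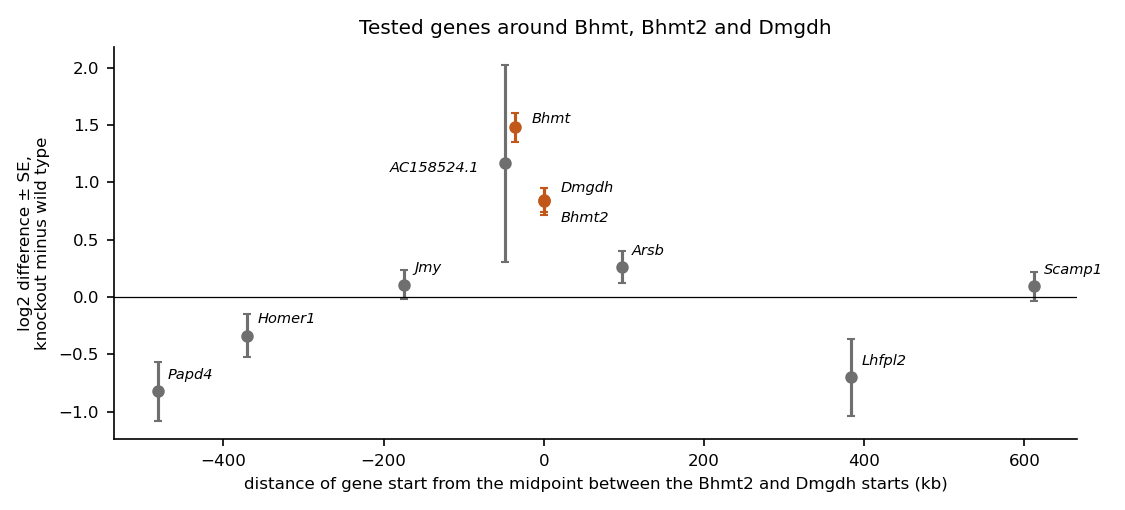
Log2 difference with its SE (y axis) of the 10 genes tested around the Bhmt, Bhmt2 and Dmgdh cluster against the distance of each gene's start from the midpoint of the Bhmt2 and Dmgdh starts (x axis, kb), with the 3 cluster genes in orange. Bhmt2 and Dmgdh coincide at 0.84, with Bhmt at 1.48 and AC158524.1, which did not pass, at 1.16 to their left. Jmy and Arsb, the nearest tested genes outside the cluster on each side, lie at 0.11 and 0.26.

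Sardh (ENSMUSG00000009614; chromosome 2, 27043913 to 27103857), sarcosine dehydrogenase, takes the next methyl group off and leaves glycine. It was at 865, 779 and 700 CPM in wild type and 1298, 966 and 1098 CPM in knockout. The groups did not overlap, with knockout library 2 the nearest to wild-type library 1. The log2 difference was 0.51 ± 0.12 (limma voom, adjusted p = 0.0129), and the call was lost without wild-type library 3 (adjusted p = 0.0836) or knockout library 1 (adjusted p = 0.0586). The ratio of Dmgdh to Sardh counts was 0.822, 0.720 and 0.833 in wild type and 0.817, 1.16 and 1.03 in knockout, with overlapping groups (two-sided exact permutation p = 0.3), so a larger rise of Dmgdh than of Sardh was not shown. With 3 libraries against 3 this test cannot give a p under 0.1, so none of the 6 ratios could pass 0.05.

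Chdh (ENSMUSG00000015970; chromosome 14, 30822209 to 30853652), choline dehydrogenase, starts betaine synthesis from choline. It was at 294, 279 and 290 CPM in wild type and 257, 218 and 255 CPM in knockout, so the 3 knockout values were all below the 3 wild-type values, against 17.9% of all genes tested with groups apart in that direction. The log2 difference of −0.24 ± 0.10 did not pass (limma voom, adjusted p = 0.123; 95% interval −0.46 to −0.02). The ratio of Dmgdh to Chdh counts was 2.42, 2.01 and 2.01 in wild type and 4.13, 5.11 and 4.45 in knockout (two-sided exact permutation p = 0.1; 0.12 adjusted over 6 ratios). Aldh7a1, which oxidises betaine aldehyde to betaine, averaged 708 ± 72.6 CPM over wild-type libraries and 618 ± 58.5 CPM over knockout ones (log2 difference −0.20, limma voom, adjusted p = 0.245).

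Mat1a (ENSMUSG00000037798; chromosome 14, 41918670 to 41937701) encodes the liver enzyme that makes S-adenosylmethionine. It was at 2605, 2424 and 1737 CPM in wild type and 3471, 3179 and 3044 CPM in knockout. The groups were apart, and wild-type library 3 was well below the other two. The log2 difference was 0.54 ± 0.13 (limma voom, adjusted p = 0.0172). Without wild-type library 3 it was 0.36 (adjusted p = 0.0793), and without knockout library 1 it was 0.49 (adjusted p = 0.0625). Mat2a, the form used outside adult liver, was at 81.0 ± 13.2 and 69.2 ± 7.92 CPM and did not pass (log2 difference −0.22, adjusted p = 0.302). Mat1a counts were 38.0, 25.6 and 21.7 times those of Mat2a in wild type and 50.1, 41.1 and 49.6 times in knockout (two-sided exact permutation p = 0.1; 0.12 adjusted over 6 ratios).

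Gnmt (ENSMUSG00000002769; chromosome 17, 46862613 to 46866117), glycine N-methyltransferase, uses S-adenosylmethionine to make sarcosine and buffers its amount in liver. It was at 2024, 1456 and 1487 CPM in wild type and 2161, 2788 and 3185 CPM in knockout. The groups were apart by little, since knockout library 1 was close to wild-type library 1. The log2 difference was 0.71 ± 0.15 (limma voom, adjusted p = 0.00769), and the call was lost without wild-type library 3 (0.64, adjusted p = 0.0606).

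Ahcy (ENSMUSG00000027597; chromosome 2, 154885046 to 154900233), which splits S-adenosylhomocysteine to homocysteine and adenosine, was at 223, 153 and 170 CPM in wild type and 198, 205 and 189 CPM in knockout. The knockout libraries fell inside the wild-type range, and the log2 difference was 0.13 ± 0.13 (limma voom, adjusted p = 0.538; 95% interval −0.15 to 0.41). Copies of Ahcy elsewhere in the genome could take part of its reads. Gnmt counts were 9.07, 9.50 and 8.74 times those of Ahcy in wild type and 10.9, 13.6 and 16.9 times in knockout, with no overlap (two-sided exact permutation p = 0.1; 0.12 adjusted over 6 ratios). The interval does not show that Ahcy was equal in both groups.

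Transsulfuration has 2 steps, and their transcripts differed in how they moved. Cbs (ENSMUSG00000024039; chromosome 17, 31749568 to 31774144), cystathionine beta-synthase, joins homocysteine to serine. It was at 590, 661 and 530 CPM in wild type and 568, 574 and 561 CPM in knockout, so the knockout libraries lay within the wild-type range. The log2 difference was −0.06 ± 0.10 (limma voom, adjusted p = 0.747; 95% interval −0.28 to 0.16), and 0.029 without wild-type library 2. Cth (ENSMUSG00000028179; chromosome 3, 157557212 to 157588041), cystathionine gamma-lyase, releases cysteine. It was at 429, 381 and 347 CPM in wild type and 780, 954 and 1056 CPM in knockout, with every knockout library far above every wild-type library. The log2 difference was 1.27 ± 0.12 (2.40-fold; limma voom, adjusted p = 6.34e-05), and the call held in 6 of 6 fits without 1 library (1.17 to 1.39). Cth counts were 0.728, 0.576 and 0.655 times those of Cbs in wild type and 1.37, 1.66 and 1.88 times in knockout. The ratio was higher in each knockout library than in each wild-type library (log2 ratio difference 1.32; the counted lengths, 2269 bases for Cth and 3343 for Cbs, cancel in this difference but not in the ratios; two-sided exact permutation p = 0.1; 0.12 adjusted over 6 ratios).

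**Figure D3:**
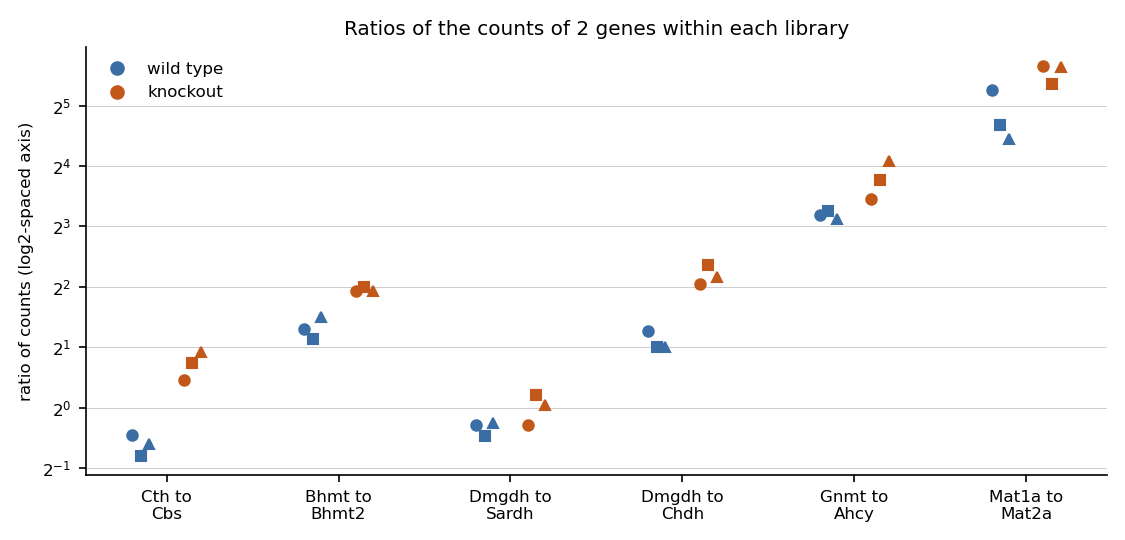
Ratio of the counts of 2 genes within each library (y axis, log2-spaced) for 6 pairs, in wild-type (blue) and knockout (orange) libraries, with circles, squares and triangles for libraries 1, 2 and 3. The groups are apart for 5 pairs and overlap for Dmgdh to Sardh. Counts are not divided by gene length, so the place of a ratio against 1 does not compare levels.

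Levels of different genes can be set side by side only per length of counted sequence. In CPM per kilobase, Gnmt led in wild type at 1373 ± 265, followed by Mat1a at 703 ± 143 (SD, n = 3 each). Dmgdh (193 ± 25.4), Cbs (178 ± 19.7), Cth (170 ± 18.2) and Sardh (144 ± 15.2) formed a middle group in which the libraries of neighbours in this order overlapped. Bhmt (95.7 ± 17.8), Bhmt2 (83.5 ± 12.9), Ahcy (64.9 ± 13.0) and Chdh (51.0 ± 1.39) were lowest, and among these the libraries of Ahcy and Chdh were apart, while those of Bhmt and Bhmt2 and of Bhmt2 and Ahcy overlapped. In knockout, Gnmt (2248 ± 428) and Mat1a (1007 ± 68.1) still led on this scale, and Cth (410 ± 61.6), Dmgdh (345 ± 12.2) and Bhmt (264 ± 14.4) came next, with overlapping libraries for Cth and Dmgdh. Sardh (206 ± 30.8), Cbs (170 ± 1.94), Bhmt2 (148 ± 10.2), Ahcy (70.3 ± 2.87) and Chdh (43.2 ± 3.84) followed. Cap selection and the length assigned to a gene can both move these levels.

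Counting error was small for these genes: its largest relative value, at the smallest count, ran from 0.956% for Mat1a to 3.68% for Ahcy, and both mates of a pair may have been counted. The spread between libraries of a group was mostly wider, with coefficients of variation from 2.72% (Chdh) to 20.3% (Mat1a) in wild type and from 1.14% (Cbs) to 19.0% (Gnmt) in knockout. Wild-type library 1 was the highest of its group for 9 of the 10 genes, the exception being Cbs. In knockout, library 1 was highest for 5 genes, library 2 for 2 and library 3 for 3. The number of these genes that rose was 4 without wild-type library 3 (Bhmt, Bhmt2, Dmgdh and Cth), 5 without knockout library 1 and 7 without any one of the other libraries.

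**Figure D4:**
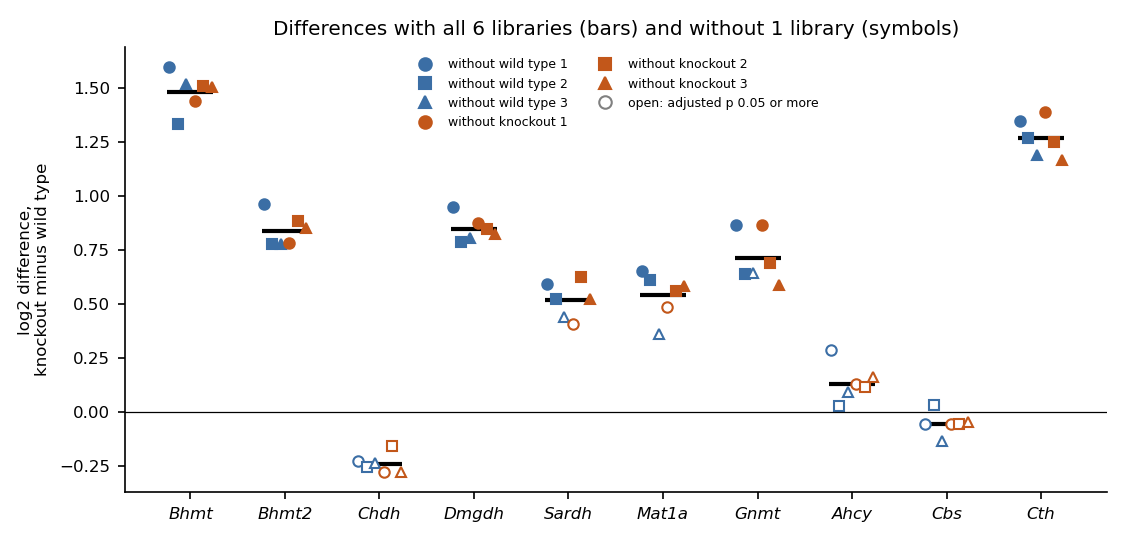
Log2 difference (y axis) of each of the 10 genes with all 6 libraries (black bars) and without each library in turn (symbols; blue for a wild-type and orange for a knockout library left out, open where the adjusted p was 0.05 or more). Bhmt, Bhmt2, Dmgdh and Cth stay filled throughout, while Sardh, Mat1a and Gnmt each have open symbols and Cbs crosses 0 once.

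In the authors' deposited table, the log2 ratios of the pooled libraries were 1.47 for Bhmt, 1.27 for Cth, 0.84 for Dmgdh and 0.83 for Bhmt2. The same table gave 0.72 for Gnmt, 0.53 for Sardh, 0.52 for Mat1a, 0.12 for Ahcy, −0.06 for Cbs and −0.23 for Chdh. The largest difference from the fit, for Mat1a, was −0.014. Both come from the same libraries, so this closeness is not separate evidence.

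Outside the 10 genes, 45 other genes of the pathway were listed by role, also with earlier results known, and 44 of them were tested. Of these 11 rose, 6 fell and 27 did not pass, with a median log2 difference of 0.17, where 7.58% of all genes tested were higher and 6.94% lower. A count of 1 in a group of 8 or 10 genes is near these shares. Without wild-type library 3, 5 rose and 1 fell, and calls over all genes tested went from 894 to 352 higher and from 819 to 281 lower. Leaving out knockout library 1 also left 1 that fell, and leaving out either library numbered 2 left 2.

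Of the folate-dependent route of remethylation, the enzyme that methylates homocysteine and its partner were at low levels. Mtr, methionine synthase, averaged 14.3 ± 2.06 CPM over wild-type libraries and 14.9 ± 0.813 CPM over knockout ones, and Mtrr, which reactivates it, at 7.41 ± 1.85 and 6.31 ± 1.52 CPM. Neither passed, with log2 differences of 0.08 ± 0.19 and −0.26 ± 0.29. Of 8 genes of the methionine cycle and remethylation 1 rose, 0 fell and 7 did not pass. The one was Ahcyl2, an Ahcy-like gene, with a log2 difference of 0.74 ± 0.18, a call lost without wild-type library 1 or 3.

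Among 8 methyltransferases that use S-adenosylmethionine, 2 rose, 2 fell and 4 did not pass. Nnmt, which methylates nicotinamide, rose by 0.70 ± 0.15 on the log2 scale (limma voom, adjusted p = 0.00920; 0.0667 without wild-type library 3). Inmt, which methylates indole amines, fell from 293 ± 59.1 to 134 ± 32.5 CPM (−1.13 ± 0.17, adjusted p = 0.00110), and Hnmt, which methylates histamine, had a log2 difference of −0.75 ± 0.22, with a call held in 2 of 6 fits without 1 library. Pemt, which makes phosphatidylcholine and is a main user of methyl groups in liver, was at 167 ± 15.3 and 206 ± 13.3 CPM and did not pass (0.31 ± 0.11, adjusted p = 0.0641; 0.0438 without wild-type library 2).

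In sarcosine and one-carbon oxidation 2 of 10 rose, 1 fell and 7 did not pass. Aldh1l1, which oxidises formyl folate, rose by 0.55 ± 0.10 on the log2 scale (limma voom, adjusted p = 0.00329), and Shmt2, the mitochondrial enzyme that interconverts serine and glycine, by 0.42 ± 0.11 (adjusted p = 0.0194; lost without wild-type library 3 or knockout library 2). Pipox, a peroxisomal enzyme that also oxidises sarcosine, had a log2 difference of −0.35 ± 0.11 (adjusted p = 0.0450), a call that held in 1 of 6 fits without 1 library. Etfa, Etfb and Etfdh, which take the electrons from Dmgdh and Sardh into the respiratory chain, had log2 differences of 0.08, 0.29 and 0.02 and did not pass.

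Past cysteine the called genes went in both directions: of 11 genes 4 rose, 3 fell and 4 did not pass. Csad, which leads from cysteine sulfinate to taurine, was at 96.7, 223 and 143 CPM in wild type and 559, 626 and 687 CPM in knockout. No gene on either list had a larger log2 difference than Csad (2.11 ± 0.21; limma voom, adjusted p = 7.27e-05), and it passed in 6 of 6 fits without 1 library. Cdo1, which makes cysteine sulfinate, averaged 1831 ± 74.5 CPM over wild-type libraries and 1532 ± 109 CPM over knockout ones and did not pass (−0.26 ± 0.09, adjusted p = 0.0852). Ethe1, Tst and Mpst, enzymes of sulfide and persulfide handling, rose by 0.99 ± 0.14, 0.79 ± 0.15 and 0.60 ± 0.15 on the log2 scale, with the call of Mpst lost without wild-type library 3 or knockout library 2. Sqrdl, the mitochondrial enzyme that starts sulfide oxidation, fell by 0.37 on the log2 scale (SE 0.11; limma voom, adjusted p = 0.0367), a call that 1 of 6 fits without 1 library kept. Gclm and Gclc, the subunits of the enzyme that starts glutathione synthesis, both fell (limma voom). Gclm changed by −0.52 ± 0.13 on the log2 scale (adjusted p = 0.0173; 4 of 6 fits without 1 library passed) and Gclc by −0.39 ± 0.11 (adjusted p = 0.0354; 2 of 6 passed).

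In methionine salvage and polyamine synthesis 2 of 7 tested genes rose, 0 fell and 5 did not pass. One of them, Mri1, an isomerase of methionine salvage, had a log2 difference of 0.71 ± 0.21 (limma voom, adjusted p = 0.0381), and 0 of 6 fits without 1 library kept its call (adjusted p from 0.0551 to 0.107). Srm, spermidine synthase, was at 3.24, 3.53 and 3.18 CPM in wild type and 9.36, 9.03 and 6.98 CPM in knockout, a low level at which the groups were still apart. Its log2 difference was 1.29 ± 0.31 (limma voom, adjusted p = 0.0144; 0.0748 without wild-type library 3).

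**Figure D5:**
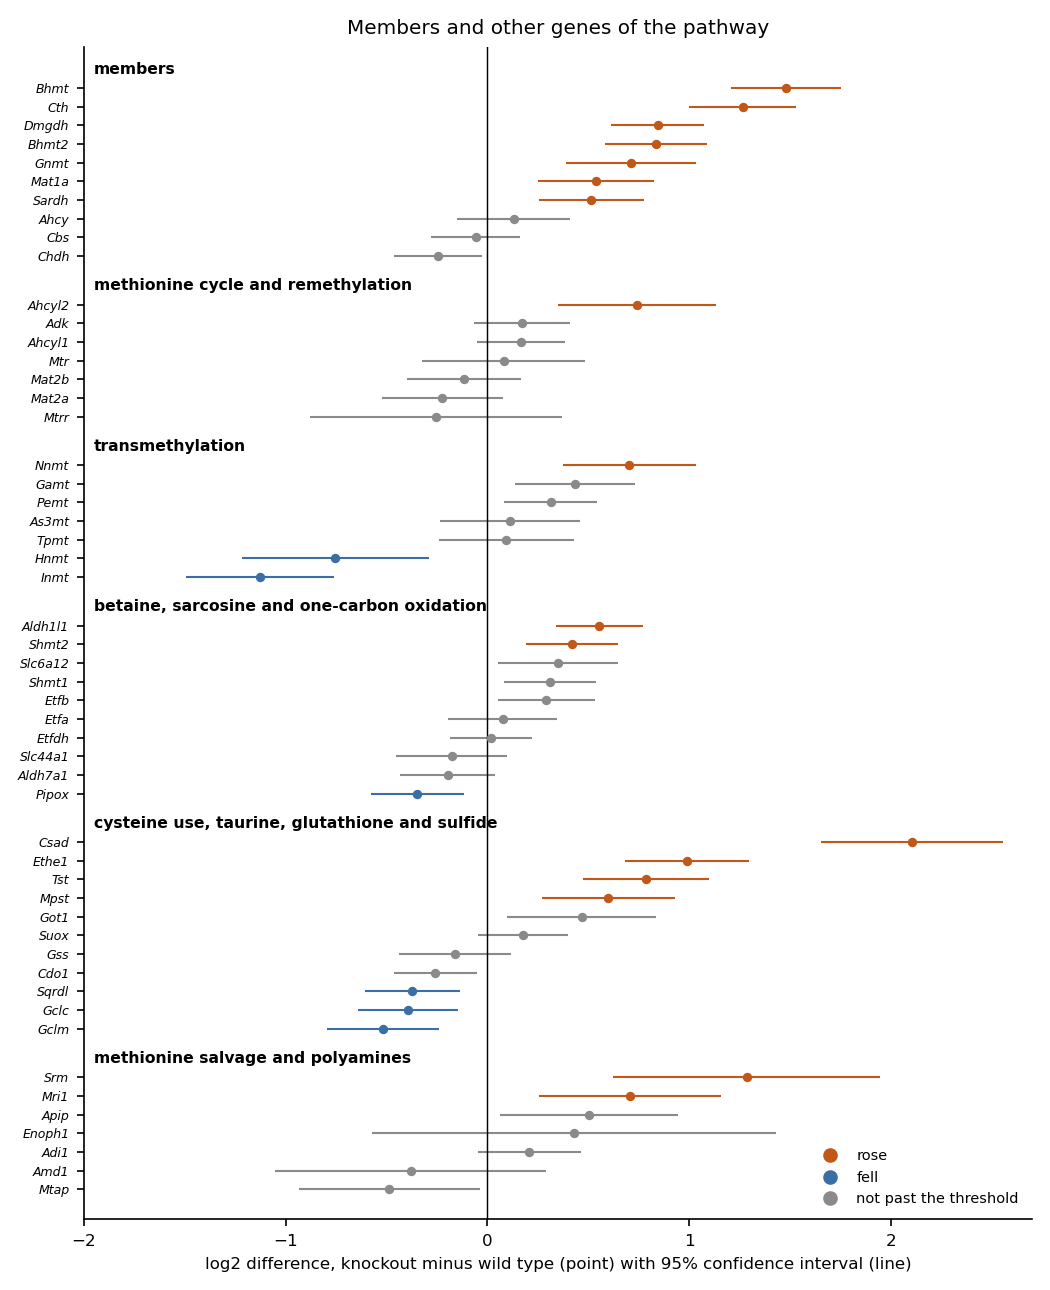
Log2 difference (x axis, points) with its 95% confidence interval (lines) for the 10 genes and for 42 of the 44 other tested genes of the pathway, grouped by role, in orange where they rose, blue where they fell and grey where they did not pass. Csad lies farthest right at 2.11, and Inmt farthest left at −1.13.

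Among 9528 other tested genes with a mean of at least 5 CPM, those with profiles most like Bhmt were AC150274.1, 6430527G18Rik, Nudt18, RP23-148P12.1 and Scarb1. Their centred log2 CPM differed from that of Bhmt by a root mean square of 0.0653 to 0.135 over the 6 libraries, against a median of 0.789 over all genes searched. Scarb1, the HDL receptor, went from a mean of 178 to 433 CPM, while the others near Bhmt had low wild-type means of 3.69 to 10.8 CPM. For Cth the nearest were Cldn3, Scarb1 and Exosc4, at 0.0865 to 0.163, against a median of 0.687. These genes were picked for their small distances, so the contrast with the medians was set by the choice.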

How the data were processed

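Cap-enriched liver RNA of wild-type and SHP-knockout mice, in 3 libraries each, was sequenced from both ends, per the labels' protocols. Per the submitters' processing notes, Novoalign 2.05.33 was the aligner and mm9 the build. How reads were counted, with regard to strand and multiple alignments, was not stated in the labels. The authors deposited raw counts per gene and library, and RPKM, a log2 ratio and p scores for pooled groups, per the file headers. The scores of the deposited table were not used.

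The table lists 33495 genes, of which 13901 have empty cells and were left out. Because 4840 lines end early, the columns could not be recorded as counts in a unit check, and limma voom was used in place of a count model. Of counts from 1 to 19, 61.8% were even. A gene was tested with at least 1.83 CPM in 3 libraries (10 counts at the median total) and a total of 15. Trimmed mean scaling factors were applied to the totals, and CPM are on scaled totals. Log2 CPM, with 0.5 added to counts, were fitted with limma 3.58.1 in R 4.3.3 on genotype alone, with Benjamini-Hochberg adjustment and a threshold of 0.05. Python 3.11.15, pandas 2.3.3, scipy 1.17.1 and matplotlib 3.10.9 did the rest.

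The fit was tested on simulated counts for this comparison (11597 genes): it called 71 of 100 genes changed 2-fold, 13 of 99 changed 1.5-fold and 2 of 11398 unchanged ones. The simulation gave every gene the same dispersion and changed a smaller share of genes than passed in the data, so these rates need not hold here. No pair of libraries of the same genotype agreed within sampling noise. Nothing in the labels says that replicates are more than separate samples, so p-values measure the spread between these samples.

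The 10 genes and the lists were chosen with earlier results of these data known, and the motifs after the promoter windows were seen. The genes named were the 10, Nr0b2, 8 fixed pathway genes, up to 12 others past the threshold by adjusted p, and the nearest profiles to Bhmt (5) and Cth (3); Papd4, Jmy, Arsb and AC158524.1 were added by position, and Aldh7a1, Pipox, Sqrdl, Mri1, Etfa, Etfb and Etfdh for their role, after their values were seen. Of the pathway genes, 2 are counted in the totals but not reported here by name. Alternatives were other scalings, no filter, another added count, limma trend, robust variances, a replicate block, no mitochondrial genes and leaving out each library.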

Additional observations from a re-analysis of the deposited data

How the results depend on the processing

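Under 8 alternatives that kept all 6 libraries, each of the 10 genes kept its direction and its side of the threshold in 80 of 80 fits, the fit with the replicate number as a block included. In the fits without 1 library this held in 54 of 60. The 6 exceptions were Sardh and Mat1a (without wild-type library 3 or knockout library 1) and Gnmt (without wild-type library 3), which lost their calls, and Cbs, whose log2 difference of −0.06 turned to 0.029 without wild-type library 2 (range −0.14 to 0.029). The number of the 10 genes that rose ran from 4 to 7 and of those that fell from 0 to 0 in the fits without 1 library. Over the other pathway genes 5 to 11 rose and 1 to 6 fell, and over all genes tested 352 to 828 were higher and 281 to 796 lower. Log2 ratios within a library kept their sign in every fit without 1 library. Same-numbered libraries of the 2 groups did not deviate together (correlations of −0.019, −0.021 and −0.024), so the numbers were not taken as pairs. With the replicate block 936 genes were higher and 843 lower, and 7 of the 10 genes rose. Nr0b2 lost its call with the block (adjusted p = 0.0553), with no further scaling (0.0536) and with no filter (0.0667). With counts not recorded as such, edgeR and DESeq2 were not run. Changes of 1.5-fold were rarely recovered in simulated data, which held a smaller share of changed genes than passed here. In the data Sardh passed at 1.43-fold and Mat1a at 1.45-fold, but single genes that passed do not measure power. The simulation also gave every gene the same dispersion, so its rate need not be the power of this comparison. A gene with a small difference may still have been missed.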
